A study of Mus musculus with 48 samples.

Results

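The mitochondrial ribosome is built from RNAs that the mitochondrial genome encodes and from proteins that are encoded in the nucleus, translated by cytosolic ribosomes and imported. Its large subunit carries the peptidyl transferase centre, the exit tunnel and the stalk that recruits translation factors, and its small subunit decodes the mRNA. The particle translates only mRNAs of the mitochondrial genome, which encode subunits of the respiratory chain and the ATP synthase. The genes described here are the protein-coding mouse genes whose symbol begins with Mrpl or Mrps followed by a digit, that is, the proteins named for the large and for the small mitochondrial subunit. There were 78 of them among the 50600 genes of the count files, 49 Mrpl and 29 Mrps genes.

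The RNA came from mPDAC cells, a mouse pancreatic ductal adenocarcinoma line of FVB/N x C57BL6 background, whose labels give an age of 8 weeks. In 3 cultures the cells received 50 µM N6L, a pseudopeptide that targets nucleolin, for 48 h, and 3 cultures were non-treated (NT). Each culture gave a cytoplasmic RNA and an RNA pooled from the polysomal part of a sucrose gradient, from 1 lysate after nuclei and mitochondria had been spun out, so that the 4 groups hold 3 libraries each. All cultures are of 1 cell line, and the NT cultures are numbered 1, 2 and 4 and the N6L cultures 1, 2 and 3.

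The 12 libraries held 19519911 to 44972333 counts, each summed over 4 technical replicates. The ductal markers Krt8, Krt18 and Krt19 were at 1108 to 4503 CPM (each count as a share of its library, TMM-scaled, in CPM units) in every library, and Cdh1 and Sox9 at 18.3 to 148 CPM. Epcam was at 0.301 CPM at most. Cpa1 and Prss1 of acinar cells had no count in any library, and the 3 leukocyte, 3 fibroblast and 2 endothelial markers were at 0.904 CPM at most, whereas acinar Cela1 was at 27.6 to 82.7 CPM. CPM values are shares of a library, so that less of an mRNA in every cell and more of all others cannot be told apart.

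Of the 78 genes, 77 passed the filter on low counts, and each of them had counts in every library. The gene that failed was Mrpl53, which had 4 counts in all, 1 in the NT polysomes of culture 4 and 3 in the N6L polysomes of culture 2. In the annotation 88.0% of the exonic bases of Mrpl53 are shared with Gm42688 on the same strand. Exonic bases of 8 members were shared with another gene on the same strand and those of 28 with a gene on the opposite strand. Since the strand setting of the counting is not given in the sources used here, the counts of Mrps25 (69.8% shared with an opposite gene) and Mrps34 (63.4% shared with an opposite gene and 37.0% with a gene on the same strand) are the most uncertain.

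In the NT cytoplasm the 77 genes ranged from 8.26 to 319 CPM with a median of 84.2 CPM, Mrps36 being the lowest and Mrpl12 the highest. Divided by transcript length, which allows levels to be compared between genes, they ranged from 9.02 to 464 CPM per kb with a median of 63.6. Mrpl52 was highest with 464 ± 171 CPM per kb (SD, n = 3), followed by Mrpl30 with 317 ± 66.4 and Mrps21 with 242 ± 106. These 3 did not differ beyond their spread, and Mrpl12 was level with Mrps21 at 242 ± 72.0 CPM per kb. The lowest were Mrpl1 with 9.02 ± 0.282, Mrpl19 with 11.3 ± 0.468 and Mrps5 with 11.5 ± 1.06 CPM per kb, of which Mrpl19 and Mrps5 lay within their spread. These levels depend on the transcript taken for each gene, which measured 418 nt for Mrpl52 and 5000 nt for Mrpl19.

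Summed over all Mrpl and Mrps genes, the NT cytoplasm held 6118, 5941 and 8341 CPM in cultures 1, 2 and 4, and the N6L cytoplasm 4038, 4085 and 4289 CPM in cultures 1, 2 and 3. All N6L cultures were below all NT cultures, and the mean was 39.2% lower. In the polysomes the sums were 7593, 7194 and 10552 CPM in NT and 5517, 6251 and 8168 CPM in N6L, which overlapped, with a mean 21.3% lower in N6L. Leaving out NT culture 4 took this to 10.1% in polysomes and to 31.4% in cytoplasm. NT culture 4 stood apart in both fractions. It had the highest NT value for 70 of the 77 genes in cytoplasm and for 68 in polysomes, and N6L culture 3 the highest N6L value for 64 in polysomes. Values with 1 culture left out are given beside the results that they moved.

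Both subunits took part in the lower sums. The Mrpl sum went from 4646 ± 915 CPM in NT to 2779 ± 100 CPM in N6L cytoplasm (SD, n = 3), a mean 40.2% lower. The Mrps sum went from 2155 ± 422 to 1358 ± 33.0 CPM, 37.0% lower. The Mrpl sum divided by the Mrps sum, on which the scaling of a library has no effect, was 2.15, 2.16 and 2.16 in the NT cytoplasm and 2.03, 2.04 and 2.07 in the N6L cytoplasm. In polysomes it was 2.16, 2.14 and 2.23 in NT and 2.10, 2.07 and 2.06 in N6L. The treatments did not overlap in either fraction, and no test was made of this ratio over the members. The ratio goes by gene name, under which Mrps30 and Mrps18a, proteins of the large subunit, and Mrps36 count as Mrps. It was not taken with subunits assigned by structure.

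**Figure D1:**
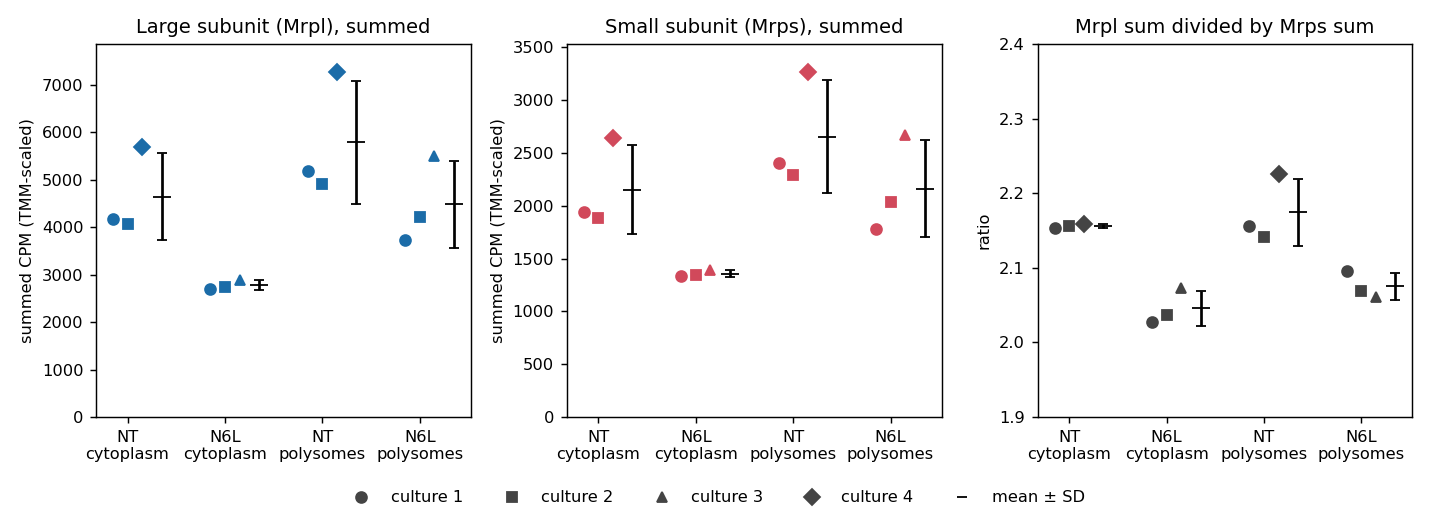
Summed level of the 49 Mrpl genes, of the 29 Mrps genes (TMM-scaled CPM, axes from 0) and their ratio (axis from 1.9) in each of the 12 libraries. Symbols give the culture and the bars the mean ± SD of 3 cultures. Both sums are lower in all N6L cytoplasm libraries (2704 to 2893 CPM for Mrpl) than in all NT ones (4059 to 5700 CPM), and the ratio falls from about 2.16 to 2.05.

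The first question of the design is how N6L changed the cytoplasmic mRNAs. Of the 77 genes tested, 54 were lower in N6L and 0 higher (edgeR quasi-likelihood test, Benjamini-Hochberg adjusted p under 0.05), 36 of 48 Mrpl and 18 of 29 Mrps genes. That is 70.1% of the members, whereas over all 13889 genes 28.3% passed in either direction, 14.5% higher and 13.8% lower. The log2 change was below 0 for 75 of the 77 genes with a median of -0.71, against 0.04 over all genes. The N6L libraries were all below the NT libraries for 70 genes, 43 Mrpl and 27 Mrps, a pattern that 25.6% of all genes had. The median was -0.76 for Mrpl and -0.65 for Mrps. With subunits assigned by structure (Mrps30 and Mrps18a counted as large, Mrps36 left out) both medians were -0.73.

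The count of 54 depended on which culture was left out. It was 16 without N6L culture 2, 31 without NT culture 4, 35 without N6L culture 1, 37 without NT culture 1, 47 without NT culture 2 and 52 without N6L culture 3, where 5.22%, 8.52%, 10.5%, 8.51%, 11.5% and 13.4% of all genes were lower. The median was then -0.87 to -0.56. With library size alone as the scaling, the median over all genes rose by 0.14 on the log2 scale and 65.5% of all calls were higher in place of 51.2%, and 40 members were still lower and 0 higher.

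The 5 largest falls past the limit (genes averaging 10 CPM or more) were all in Mrpl genes. Mrps16 came next with -1.177 ± 0.252 (SE, adjusted p = 0.0056), where Mrpl12, the last of the 5, had -1.182. Mrpl52 stood at 150, 156 and 276 CPM in NT and at 64.0, 69.1 and 78.9 CPM in N6L, a log2 change of -1.46 ± 0.28 (SE, adjusted p = 0.0035). Mrpl41 went from 40.8, 41.9 and 73.7 CPM to 19.1, 21.6 and 23.0 CPM (-1.29 ± 0.29, adjusted p = 0.0068). For both, the highest N6L culture lay well below the lowest NT culture, and NT culture 4 was the highest of all.

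Mrpl57 was at 77.4, 68.0 and 126 CPM in NT and at 31.6, 38.3 and 41.3 CPM in N6L (-1.29 ± 0.33, adjusted p = 0.013). For Mrpl34 the values were 66.5, 61.7 and 114 CPM against 34.3, 32.2 and 36.6 CPM (-1.23 ± 0.33, adjusted p = 0.015). Mrpl12 is the L7/L12 stalk protein, which recruits translation factors and has also been found with the mitochondrial RNA polymerase. In NT cytoplasm it had the highest CPM of the members, though not the highest CPM per kb. It stood at 256, 273 and 428 CPM in NT and at 144, 129 and 149 CPM in N6L (-1.18 ± 0.28, adjusted p = 0.0096).

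Of the 77 genes, 23 did not pass. Mrpl1, of the L1 stalk where the spent tRNA leaves, was at 31.8, 29.9 and 31.2 CPM in NT and at 28.9, 38.4 and 32.7 CPM in N6L, a log2 difference of 0.11 ± 0.19 with overlapping groups. Mrpl9 (0.03 ± 0.14) and Mrpl3 (-0.04 ± 0.13) were closer to 0, and Mrpl50 had -0.10 ± 0.16. These genes were named after their values were seen, as members near to no difference.

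**Figure D2:**
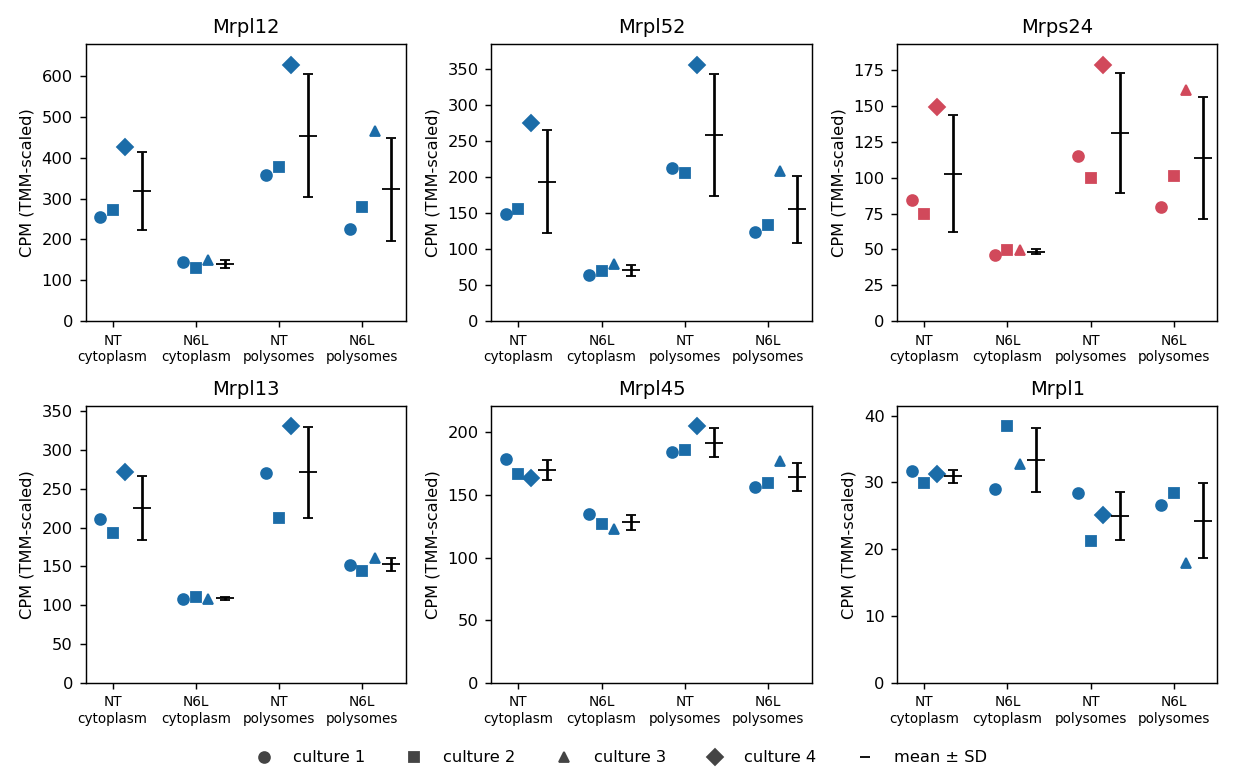
Levels of Mrpl12, Mrpl52, Mrps24, Mrpl13, Mrpl45 and Mrpl1 in each library (TMM-scaled CPM, axes from 0). Symbols give the culture and bars the mean ± SD of 3 cultures. The N6L cytoplasm lies below the NT cytoplasm for the first 5 genes, and in N6L polysomes culture 3 lies near the NT level for Mrpl12 (466 CPM) and Mrps24 (161 CPM) but not for Mrpl13 (161 CPM, against 213 to 331 CPM in NT).

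By place in the particle, as assigned here, the 2 proteins of the L7/L12 stalk and the 1 at its base were called lower, as were 70.1% of the members and 13.8% of all genes. Mrpl10, which anchors Mrpl12, was at 109, 101 and 112 CPM in NT and 79.3, 76.2 and 79.6 CPM in N6L (-0.46 ± 0.15, adjusted p = 0.038), the smallest change of the 3. Mrpl11, at the base of the stalk, went from 81.0, 76.1 and 118 CPM to 50.7, 52.5 and 51.5 CPM (-0.83 ± 0.23, adjusted p = 0.018).

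At the exit tunnel, through which the nascent chain leaves, 4 of 5 genes fell, a share near that of all members. Mrpl22, Mrpl23 and Mrpl24 line it and changed by -0.77 ± 0.19, -0.99 ± 0.22 and -0.86 ± 0.16 (adjusted p = 0.010, 0.0066 and 0.0030). Mrpl45, which ties the ribosome to the inner membrane, changed by -0.41 ± 0.13 (adjusted p = 0.030), from 179, 167 and 164 CPM to 135, 127 and 123 CPM. Mrpl47 had a log2 difference of -0.36 ± 0.18 and did not pass. Of the 8 genes assigned here to the central protuberance 6 fell, also near that share, among them Mrpl58, a peptidyl-tRNA hydrolase that rescues stalled ribosomes, by 1.11 on the log2 scale (SE 0.24, adjusted p = 0.0061).

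In the small subunit, Mrps24 at the mRNA entry fell from 84.6, 74.7 and 149 CPM to 46.1, 49.5 and 49.4 CPM (-1.09 ± 0.30, adjusted p = 0.017). Mrps12, which takes part in decoding, was at 30.7, 35.5 and 46.9 CPM in NT and 20.9, 20.1 and 22.8 CPM in N6L (-0.82 ± 0.26, adjusted p = 0.029). Mrps2 (-0.14 ± 0.14) and Mrps5 (-0.32 ± 0.13) did not pass, and the sign of the Mrps2 value changed with library size alone (0.01).

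The Mrps18 family has 3 mammalian members, of which 1 sits in the large subunit and 2 in the small one. The small subunit protein Mrps18c fell by 0.59 on the log2 scale (SE 0.19, adjusted p = 0.032), from 50.9, 40.3 and 53.9 CPM to 29.0, 35.03 and 32.5 CPM, and in the annotation 23.2% of its exonic bases are shared with a gene on the same strand. Mrps18a, the large subunit paralog, had -0.46 ± 0.21 (adjusted p = 0.11), and Mrps18b -0.35 ± 0.15 (adjusted p = 0.084), each without overlap between treatments.

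Some names do not match the protein's place. Mrps30 sits in the large subunit and was at 50.6, 48.9 and 52.8 CPM in NT and 43.6, 46.1 and 48.1 CPM in N6L, a log2 difference of -0.14 ± 0.14 that turned to 0.002 with library size alone. Mrps36 is a component of the 2-oxoglutarate dehydrogenase complex rather than of the ribosome. Its 5.92, 6.13 and 12.7 CPM in NT and 4.08, 5.69 and 5.82 CPM in N6L did not pass either (-0.65 ± 0.30, adjusted p = 0.12).

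**Figure D3:**
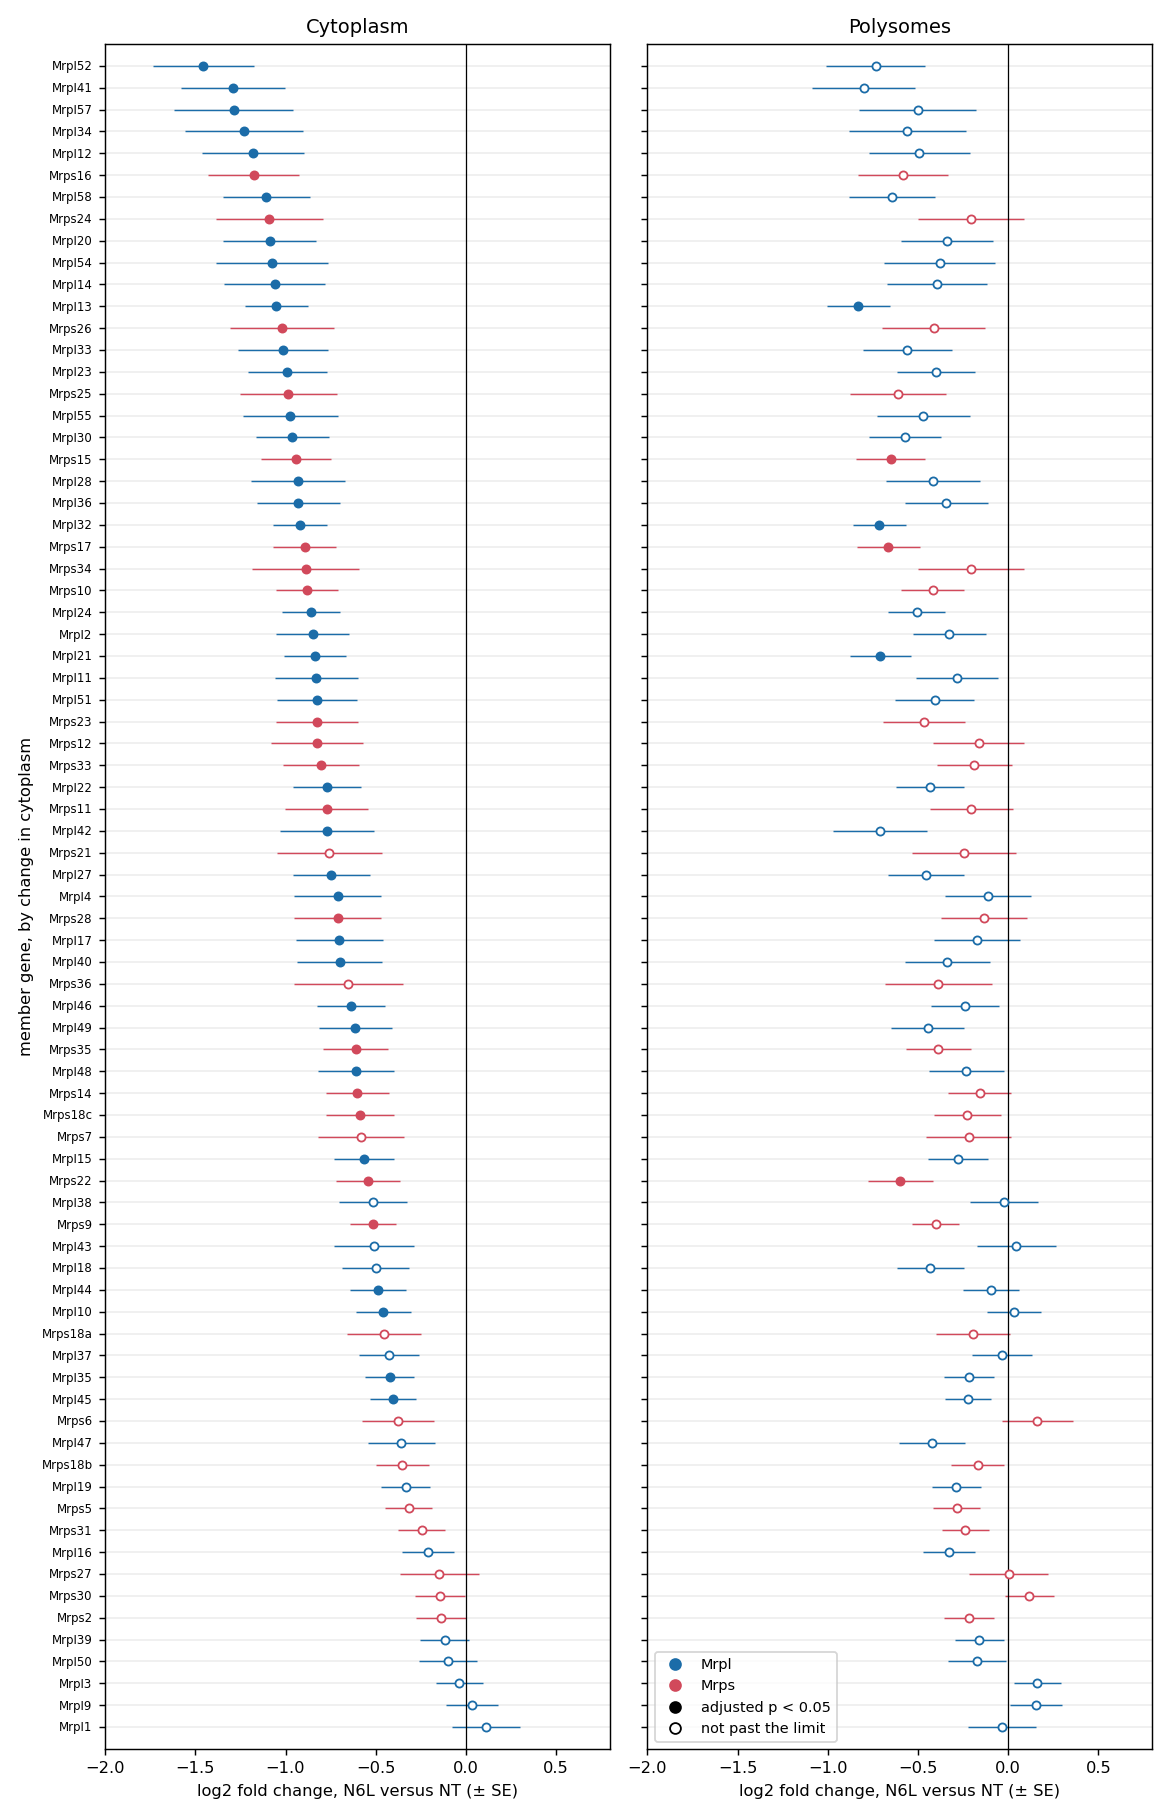
Log2 fold change of each of the 77 tested genes, N6L versus NT, in cytoplasm (left) and polysomes (right), ordered by the cytoplasmic change; bars are ± 1 SE and filled points have an adjusted p under 0.05. In cytoplasm 54 points are filled and 75 lie below 0, and in polysomes 6 are filled.

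In polysomes the same comparison called fewer members. There 6 of 77 genes were lower in N6L and 0 higher, 7.8% of the members, against 9.67% of all genes in either direction, 6.01% higher and 3.66% lower. The share called lower was thus above that of all genes and the share called in either direction below it. The median log2 change was -0.33 (Mrpl -0.36, Mrps -0.23), against 0.00 over all genes, and the N6L libraries were all below the NT libraries for 13 Mrpl and 7 Mrps genes, where 11.9% of all genes had this. Without NT culture 4 the median was -0.14 (Mrpl -0.15, Mrps -0.11) and 12 of 29 Mrps values lay above 0, and without N6L culture 1 it was -0.21. The count of 6 was 0 without N6L culture 2 (0.121% of all genes lower) and 0 without NT culture 1 (0.327%). It was 2 without NT culture 4 (1.05%) and 0 when the polysomal libraries were fitted alone (0.524%). With an offset for transcript length and GC content it was 19, and the share of all genes called lower was then 11.7%.

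Mrpl13, whose bacterial homologue is an early binder in assembly, fell most, from 271, 213 and 331 CPM to 152, 144 and 161 CPM (-0.83 ± 0.17, adjusted p = 0.011). Mrpl32, which needs cleavage by the m-AAA protease before it joins the ribosome, went from 73.9, 61.4 and 76.0 CPM to 41.0, 44.2 and 43.6 CPM (-0.71 ± 0.15, adjusted p = 0.011). Mrpl21 went from 129, 106 and 166 CPM to 80.0, 78.1 and 87.5 CPM (-0.71 ± 0.17, adjusted p = 0.022). In these 3 genes every N6L polysomal library lay below every NT one.

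The other calls were in the small subunit. Mrps17 fell from 146, 104 and 157 CPM to 77.8, 88.7 and 90.5 CPM (-0.67 ± 0.17, adjusted p = 0.030), and Mrps15 from 127, 104 and 168 CPM to 80.3, 85.4 and 88.5 CPM (-0.65 ± 0.19, adjusted p = 0.047). Mrps22, in which mutations cause a mitochondrial disease, went from 52.2, 41.2 and 50.4 CPM to 37.0, 32.6 and 25.4 CPM (-0.60 ± 0.18, adjusted p = 0.049). All 6 genes were also called in cytoplasm, with log2 changes there of -1.05, -0.92, -0.84, -0.89, -0.94 and -0.54 in the same order.

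The polysomal level relative to the cytoplasmic level of the same treatment was compared next. In NT cells 0 of 77 members passed, where 0.209% of all genes did (29 genes, all lower, that is 0.209% lower and 0.0% higher). The log2 ratio was above 0 for 75 genes with a median of 0.32 (Mrpl 0.32, Mrps 0.30), against 0.03 over all genes, and the lowest adjusted p was 0.25. With the culture as a replicate block and the offset for length and GC content described below, 2 members were higher, where 1.75% of all genes were higher and 4.75% passed in either direction. In N6L cells 61 of 77 members were higher in polysomes and 0 lower, 40 Mrpl and 21 Mrps genes, which is 79.2%, against 39.0% of all genes in either direction, 18.4% higher and 20.6% lower. The median was 0.71 (Mrpl 0.72, Mrps 0.71). Leaving out N6L culture 2 left 3 of these calls (2.56% of all genes higher), and leaving out N6L culture 3 left 7 (3.09%). An offset for transcript length and GC content took the median to 0.33 and the count to 30 (10.5% of all genes higher), or to 49 with the culture also as a replicate block (20.4%).

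The highest polysome-to-cytoplasm ratios in N6L were those of Mrps24 (log2 1.24 ± 0.30, adjusted p = 0.0080), Mrpl12 (1.20 ± 0.28, adjusted p = 0.0074), Mrpl57 (1.18 ± 0.33, adjusted p = 0.014) and Mrpl54 (1.14 ± 0.31, adjusted p = 0.013). The lowest were Mrpl1 (-0.46 ± 0.19, adjusted p = 0.066), Mrpl47 (-0.10 ± 0.18), Mrpl50 (-0.05 ± 0.16) and Mrps22 (0.01 ± 0.18), none of which passed. With the culture as a replicate block 1 Mrpl gene was called lower (27.6% of all genes lower). The same count was found with library size alone (22.5%) and without N6L culture 1 (21.7%). Under the offset for length and GC content the values of Mrpl1, Mrpl47 and Mrpl50 became positive (0.29, 0.44 and 0.39).

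Per culture, the median log2 ratio over the 77 genes was 0.29, 0.27 and 0.34 in NT cultures 1, 2 and 4 and 0.46, 0.65 and 0.89 in N6L cultures 1, 2 and 3. The N6L cultures thus lay above the NT cultures and differed among themselves by more than the NT cultures did. N6L culture 3 had the highest N6L ratio for 58 of the 77 genes. In all 6 cultures the ratio was positive for 67 genes.

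**Figure D4:**
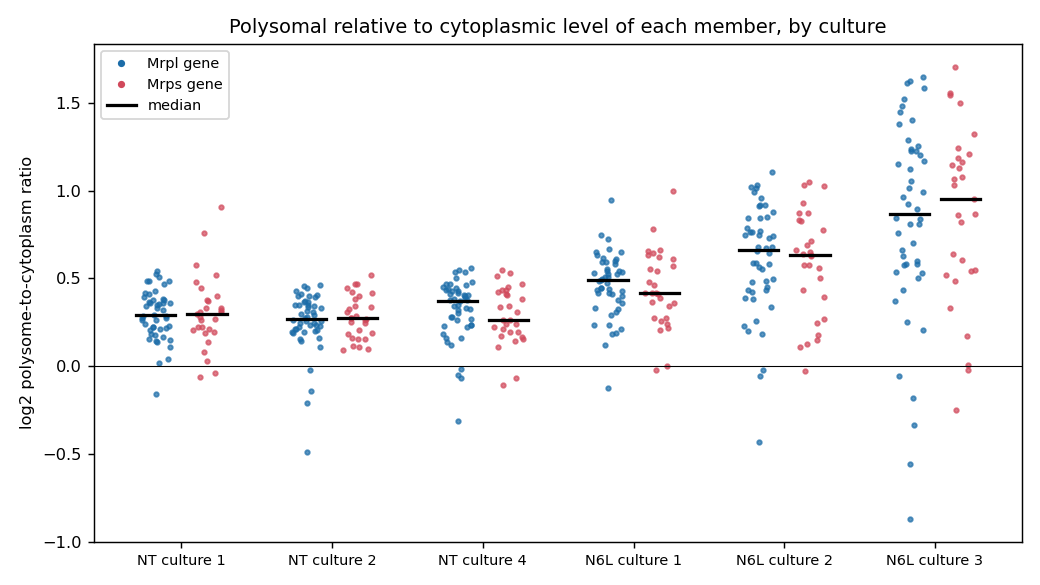
Log2 polysome-to-cytoplasm ratio of each tested gene in each culture (prior count 2), Mrpl in blue and Mrps in red, with the median of each family as a black line. The NT medians lie between 0.26 and 0.37, and the N6L medians rise above them in each of the 3 cultures, to 0.95 for Mrps in culture 3.

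The translational index asks whether N6L changed this ratio, and is the log2 ratio in N6L minus that in NT. No member passed the adjusted limit, and neither did any gene (0.0% of all genes, edgeR, lowest adjusted p of a member 0.55). DESeq2 called 0 members as well. Without adjustment 1 of the 77 members had a p under 0.05, against 7.73% of all genes. The index was above 0 for 70 of the 77 genes, against 50.7% of all genes, with a median of 0.38 (Mrpl 0.39, Mrps 0.36, all genes 0.01). The N6L cultures were all above the NT cultures for 49 genes, 32 Mrpl and 17 Mrps, where 15.3% of all genes had this. With 3 cultures against 3 the exact two-sided permutation test allows no p below 0.1. Leaving out 1 culture gave medians of 0.26 to 0.49, and for Mrps 0.19 (without N6L culture 3) to 0.50. With the offset for transcript length and GC content the median was 0.20.

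Mrpl10 was the member with an unadjusted p under 0.05. Its log2 ratio was 0.23, 0.23 and 0.23 in NT and 0.43, 0.68 and 0.99 in N6L, an index of 0.49 ± 0.22. The NT ratios were the same to 2 decimals, and all N6L ratios lay above them.

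The 4 highest indices were those of Mrps24 (0.88 ± 0.42), Mrpl57 (0.79 ± 0.46), Mrpl20 (0.75 ± 0.36) and Mrpl52 (0.72 ± 0.39). In the same order, their cytoplasmic log2 changes were -1.09, -1.29, -1.09 and -1.46 and their polysomal ones -0.21, -0.50, -0.34 and -0.74. Their polysomal values were thus lower in N6L as well, by less than the cytoplasmic ones. Mrps24 had log2 ratios of 0.45, 0.42 and 0.26 in NT and of 0.78, 1.03 and 1.71 in N6L (exact permutation p = 0.1). Mrpl57 had 0.26, 0.45 and 0.43 in NT and 0.73, 0.91 and 1.62 in N6L (exact permutation p = 0.1). In both, N6L culture 3 was the highest, and the treatments did not overlap.

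The 4 lowest were Mrpl1 (-0.14 ± 0.27), Mrpl16 (-0.12 ± 0.20), Mrps2 (-0.08 ± 0.20) and Mrpl50 (-0.07 ± 0.23). For Mrpl1 the log2 ratios were -0.16, -0.49 and -0.31 in NT and -0.12, -0.43 and -0.87 in N6L (exact permutation p = 0.7). Mrpl16 had 0.22, 0.36 and 0.38 in NT and 0.12, 0.25 and 0.25 in N6L (exact permutation p = 0.3). Each of these 4 genes had overlapping groups. The indices of Mrpl1 and Mrpl50 were positive under the offset for length and GC content (0.19 and 0.10).

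The promoters of the 2 members with the highest and the 2 with the lowest index are printed below, from RefSeq on GRCm38.p6, with 250 bases before and 50 bases after the start. A link between promoter and index was not tested. Capitals mark the motifs searched on both strands: CCGGAAG (core of ETS factors), AAGATGGC (YY1), TGCGCA (NRF1, the same on both strands), CCAAT and TATAAA. Mrps24 lies at chr11:5707652-5707951 (minus strand), Mrpl57 at chr14:57825989-57826288 (plus), Mrpl16 at chr19:11770165-11770464 (plus) and Mrpl1 at chr5:96209865-96210164 (plus).
Mrps24 promoter: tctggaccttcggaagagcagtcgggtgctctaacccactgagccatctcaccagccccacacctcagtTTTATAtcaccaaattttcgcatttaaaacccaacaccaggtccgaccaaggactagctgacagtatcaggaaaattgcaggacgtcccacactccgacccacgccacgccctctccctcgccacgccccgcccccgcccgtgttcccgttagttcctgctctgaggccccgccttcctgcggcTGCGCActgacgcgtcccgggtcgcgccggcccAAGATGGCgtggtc
Mrpl57 promoter: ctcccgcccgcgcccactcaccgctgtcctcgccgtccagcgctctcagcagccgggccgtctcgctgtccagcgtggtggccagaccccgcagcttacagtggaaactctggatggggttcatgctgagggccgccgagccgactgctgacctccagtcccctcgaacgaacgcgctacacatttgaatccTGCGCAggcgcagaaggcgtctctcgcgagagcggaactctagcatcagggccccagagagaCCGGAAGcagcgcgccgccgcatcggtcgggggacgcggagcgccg
Mrpl16 promoter: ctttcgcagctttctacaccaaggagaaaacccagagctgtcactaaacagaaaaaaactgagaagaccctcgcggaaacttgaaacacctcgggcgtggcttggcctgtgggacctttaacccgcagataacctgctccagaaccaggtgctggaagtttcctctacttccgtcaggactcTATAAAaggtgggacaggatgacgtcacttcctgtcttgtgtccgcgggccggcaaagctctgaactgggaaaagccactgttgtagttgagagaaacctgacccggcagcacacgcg
Mrpl1 promoter: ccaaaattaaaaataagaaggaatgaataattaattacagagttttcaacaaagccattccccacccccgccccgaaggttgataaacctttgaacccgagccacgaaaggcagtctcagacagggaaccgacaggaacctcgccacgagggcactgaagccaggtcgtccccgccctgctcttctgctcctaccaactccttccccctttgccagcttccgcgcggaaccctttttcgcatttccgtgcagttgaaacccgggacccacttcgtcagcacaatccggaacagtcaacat
The Mrps24 window holds the YY1 letters 37 bases after the start, the NRF1 letters at base 4 and TATAAA on the opposite strand, and that of Mrpl57 the ETS letters at base 5 and the NRF1 letters. Mrpl16 has TATAAA and Mrpl1 none of the 5.

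RefSeq windows were found for 69 of the 78 members. The ETS letters were in 37.7% of them, against 20.3% of the 10092 genes tested that have a window and 9.93% of all 27025. The YY1 letters were in 17.4%, against 5.28% and 3.19%, and the NRF1 letters in 30.4%, against 15.9% and 8.79%. Of 55 cytosolic ribosomal protein genes 22 held the ETS letters (40.0%), 5 the YY1 letters (9.09%) and 11 the NRF1 letters. CCAAT was in 39.1%, against 43.2% and 41.1%, and TATAAA in 7.25%, against 8.90% and 15.7%. Between the subunits, the ETS letters were in 34.9% of 43 Mrpl and 42.3% of 26 Mrps genes.

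A C followed by 4 pyrimidines at the RefSeq start, the letters of a 5′TOP mRNA, was found in 0 of 69 members, in 13 of 55 cytosolic ribosomal protein genes (23.6%) and in 3.08% of the genes tested. This says only that these letters are not at the start RefSeq gives. The 25 tested members with the ETS letters had a median cytoplasmic log2 change of -0.77 and the 43 without -0.65. For the YY1 letters the medians were -0.69 (12 genes) and -0.75 (56 genes), and for the NRF1 letters -0.77 (21 genes) and -0.75 (47 genes).

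The members differed among themselves with the length and base composition of their transcripts, in the same direction as all genes did. Across the 77 genes the cytoplasmic log2 change had a Pearson's r of 0.38 with log2 transcript length, against 0.43 across all genes. The median change was -0.81 in the 26 shortest transcripts (405 to 803 nt, 22 called lower), -0.77 in the 25 of middle length (20 called) and -0.41 in the 26 longest (1498 to 6073 nt, 12 called). Of all genes of any length 13.8% were called lower, and the share within each of these length ranges was not taken. The median length was 1162 nt for the members and 2281 nt for all genes. The index had an r of -0.41 with log2 length and of 0.55 with GC content, against -0.44 and 0.38 across all genes. The genes share all libraries and are not independent replicates, so these are descriptions. With the offset for length and GC content the median cytoplasmic change was -0.49, and 49 genes were called lower, 45 of them among the 54, where 19.0% of all genes were lower.

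**Figure D5:**
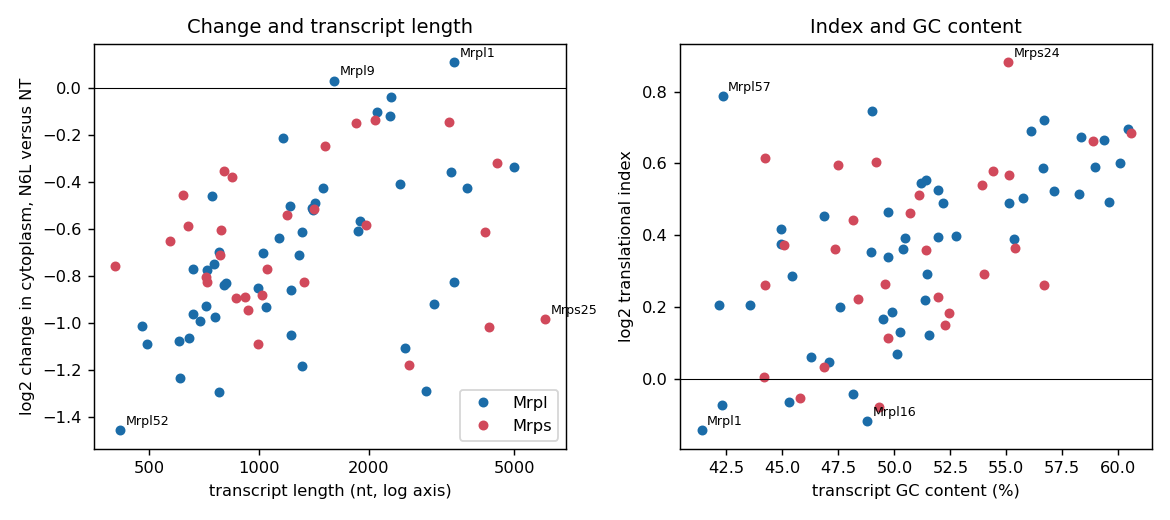
Left, cytoplasmic log2 change (N6L versus NT) of each tested gene against the length of its transcript (nt, log axis). Right, log2 translational index against transcript GC content (%). Blue points are Mrpl and red points Mrps genes; Mrpl52, the largest fall (-1.46), has a transcript of 418 nt, and Mrpl1, the largest positive value (0.11), one of 3431 nt.

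Other genes of mitochondrial translation were described by lists. Of 5 subunits that carry other symbols, 3 were lower (60.0%, against 13.8% of all genes) and 1 higher in N6L cytoplasm. Their median log2 change was -0.68, between those of Mrpl and Mrps. Chchd1 changed by -0.95, Gadd45gip1 by -0.76 and Aurkaip1 by -0.68 (adjusted p = 0.0088, 0.022 and 0.034), and Ptcd3 rose by 0.70 on the log2 scale (adjusted p = 0.037), opposite to the 54 members called. Dap3 had -0.30 and did not pass.

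Among 27 assembly factors 8 were lower (29.6%, against 13.8% of all genes) and 0 higher, with a median of -0.24, led by C1qbp (-1.06, adjusted p = 0.0019) and Mpv17l2 (-0.84, adjusted p = 0.021). Of 15 mitochondrial translation factors 2 were lower, a share (13.3%) near that of all genes. They were Slirp (-0.97, adjusted p = 0.0044), which binds mitochondrial mRNA, and Tsfm (-0.80, adjusted p = 0.0048), which recharges the elongation factor Tufm. The median of that list was -0.06. Of 17 mitochondrial aminoacyl-tRNA synthetases 1 was lower (median -0.21), and of 13 genes of mitochondrial transcription and RNA processing 2 were (median -0.10), 5.88% and 15.4%.

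The mRNAs that the mitochondrial ribosome translates were lower too. Of 13 mitochondrially encoded mRNAs 7 passed the filter, and 5 of these were lower in N6L cytoplasm (71.4%, against 13.8% of all genes). The median log2 change of the 7 was -2.58. Their summed level was 3829 to 8877 CPM in NT cytoplasm and 905 to 1938 CPM in N6L cytoplasm. Since mitochondria were spun out of the lysates, their amount in the cells and the part left in the lysate cannot be told apart.

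The cytosolic ribosomal proteins, the other large family of ribosomal proteins, moved in the same direction. In N6L cytoplasm 73 of 74 were lower (98.6%, against 13.8% of all genes), with a median log2 change of -0.91 (members -0.71). In polysomes only 2 of 74 were called lower, where 3.66% of all genes were, with a median of -0.33 (members also -0.33). Their median index was 0.59 (members 0.38). The 2 families share all libraries, and the difference between them was not tested.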

How the data were processed

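The polyA RNA libraries were prepared with a stranded kit and demultiplexed with bcl2fastq 2.18.0.12. Per the labels, the authors mapped the reads to mm10 (STAR), made counts per gene (HTSeq 0.5.3) and deposited these counts unnormalized. How strand and multi-mapping reads were handled and which annotation was used is not stated in the sources used here. Symbols, coordinates, transcript length and GC content came from GENCODE vM21 (GRCm38), in which 50376 of 50600 gene IDs were found, and length and GC content were those of the transcript of median length among the basic coding transcripts. Mrpl and Mrps pseudogenes (5) were left out.

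Technical replicates were summed, as their chi-square divided by its degrees of freedom was 1.02 to 1.04. In N6L cytoplasm, 3 technical replicates titled as culture 2 carry a description that names sample 1; they were kept by title, and left out in an alternative. edgeR 4.0.16 (R 4.3.3) was used on the counts of 13889 genes that filterByExpr kept, with TMM factors, 1 mean per group over 12 libraries, no block, and the quasi-likelihood test, with Benjamini-Hochberg adjustment over all genes and a limit of 0.05. The 5 contrasts were N6L against NT in each fraction, polysome against cytoplasm in each treatment, and the translational index. Per culture, ratios were taken as differences of log2 CPM (TMM, prior count 2).

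The cytoplasm and polysomes of a culture are paired, since both come from 1 lysate, and their residuals had correlations of 0.364, 0.452 and 0.645 in NT and of 0.0368, 0.199 and 0.230 in N6L cultures. In simulated data (13889 genes, 200 of them changed by a log2 of 1 or 2 up or down) edgeR was tried on known changes. It recovered 70.5% for the cytoplasmic comparison, 76.5% for the polysomal one and 50.0% for the index. Of the changes of size 1 it recovered 50%, 60% and 19%, and smaller changes were not simulated. False calls were 5, 9 and 7 genes in the same order. Each library was drawn on its own, so the pairing of cytoplasm and polysomes was not simulated. P-values measure the spread between libraries within groups, pooled over both fractions. The edgeR fit without a block took the cytoplasm and polysomes of a culture as independent, although they are paired. All cultures are of 1 line, and the labels do not state their independence.

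The members, the lists and the alternatives were chosen with earlier results of these data known. The genes named are the 5 largest called falls and rises with a mean of at least 10 CPM in each treatment comparison, the 4 highest and 4 lowest of the index and of the N6L ratio, the 3 highest and 3 lowest levels per kb, genes of set places in the particle, and genes below the filter. Alternatives were RLE factors, library size alone, other filters, DESeq2 1.42.0, technical replicate a alone, each culture left out, only the groups compared, blocks, and offsets for length and GC content.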

Additional observations from a re-analysis of the deposited data

How the results depend on the processing

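With 3 cultures per treatment the counts of genes called depend on single cultures, while the medians kept their sign in every alternative run. Leaving out 1 culture at a time gave 16 (without N6L culture 2) to 52 members called in cytoplasm, 0 (without N6L culture 2 or NT culture 1) to 8 in polysomes and 3 (without N6L culture 2) to 64 for the N6L ratio, and 0 for the NT ratio and the index. Of all genes 2.91% were lower in polysomes where 8 members were, and 21.1% had a higher N6L ratio where 64 members had. A group left with 2 cultures was assumed to vary like the others. The median log2 change of all members, Mrpl and Mrps was then -0.87 to -0.56, -0.88 to -0.59 and -0.82 to -0.52 in cytoplasm and -0.47 to -0.14, -0.51 to -0.15 and -0.44 to -0.11 in polysomes, the index 0.26 to 0.49, 0.27 to 0.48 and 0.19 to 0.50, and the NT ratio 0.25 to 0.33 for all members, 0.26 to 0.33 for Mrpl and 0.24 to 0.31 for Mrps. Values of named genes whose sign depended on 1 culture were, in polysomes, those of Mrpl10 (-0.142 to 0.153), Mrps12 (-0.555 to 0.0313) and Mrps24 (-0.542 to 0.0910), in the N6L ratio those of Mrpl47 (-0.271 to 0.0795), Mrpl50 (-0.167 to 0.0754) and Mrps22 (-0.131 to 0.125), and in the index those of Mrpl1 (-0.306 to 0.0208), Mrpl50 (-0.187 to 0.0556) and Mrps2 (-0.177 to 0.0194). None of these values was past the limit with all cultures. The causes of the changes in this section were not tested.

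With the offset for transcript length and GC content the counts were 19 in polysomes and 30 for the N6L ratio. The medians of all members, Mrpl and Mrps were -0.49, -0.50 and -0.43 in cytoplasm, 0.15, 0.15 and 0.16 for the NT ratio and 0.33, 0.31 and 0.34 for the N6L ratio, and the index was 0.20 for all members and 0.20 for Mrpl. Signs changed for Mrps18a in cytoplasm (0.0415), Mrps18c in polysomes (0.0174), Mrpl1, Mrpl47 and Mrpl50 in the N6L ratio (0.29, 0.44 and 0.39) and Mrpl1 and Mrpl50 in the index (0.19 and 0.10). With the culture also as a replicate block the NT ratio gave 2 calls and medians of 0.15, 0.15 and 0.16, the N6L ratio medians of 0.33, 0.31 and 0.33, and the index 0.20 for all members and 0.20 for Mrpl. The same 3 genes then had N6L ratios of 0.29, 0.44 and 0.38, and the indices of Mrpl1 and Mrpl50 were 0.192 and 0.0898.

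The culture as a replicate block alone gave 67 calls for the N6L ratio, 66 higher and 1 lower. Of all genes 26.1% were higher and 27.6% lower there. It gave 0 calls for the NT ratio (1.46% of all genes called) and 0 for the index (0.0%). The Mrps22 ratio in N6L became -0.00197, and no other sign changed. Across treatments cultures share only a number. The culture number as a replicate block gave 60 calls in cytoplasm, all lower (17.4% of all genes lower). In polysomes it gave 16, all lower (5.76% of all genes lower), of which 4 were among the 6. Mrpl10 was then at -0.116 and Mrps30 at -0.00499 in polysomes. Residuals of same-numbered libraries correlated by 0.228 and 0.0455 in cytoplasm and by 0.296 and 0.00756 in polysomes.

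Library size alone gave a Mrps median of -0.49 in cytoplasm and NT ratio medians of 0.24, 0.24 and 0.23, and the signs of Mrps2 (0.00776) and Mrps30 (0.00196) in cytoplasm and of Mrps22 in the N6L ratio (-0.11) changed. In polysomes 10 members were called without a filter on low counts (Mrps22 ratio in N6L -0.00900), 10 by DESeq2 and 0 with only the groups compared. In the same order, 2.65%, 6.55% and 0.524% of all genes were lower in polysomes. Of all values of named genes under the alternatives, 64 lost their call, 23 gained one and 31 changed sign.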
